A study of Mus musculus with 6 samples.

Results

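The genes described here lie around Ptprc on mouse chromosome 1. Ptprc encodes CD45, the surface phosphatase whose Ly5.1 allele was used to sort wildtype from Bach2 knockout thymocytes. The 60 listed genes were chosen from those near Ptprc with earlier results of these data known, and they are not all the genes there. Each measured gene was represented by the probe set that carried its symbol alone, the one with the highest mean where there were several. By this rule 52 of the 60 were measured, among 19938 genes tested in all. Of the other 8, Zc3h11a shares its probe set's annotation with a second symbol and Trove2 is annotated under its current symbol Ro60, while Ren1, Etnk2, Atp2b4, Adora1, Arl8a and Tpr had no probe set listed here. The platform's annotation can be old, and a gene that it does not list is not thereby unexpressed.

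The study measured RNA of CD4 single-positive thymocytes on 6 arrays, 3 wildtype (Ly5.1+) and 3 Bach2 knockout (Ly5.1-), all male and on a C57BL/6 background. The series' design text gives the 6 samples as taken from separate mice, and the labels do not tie a sample to a host. The cells of both genotypes had matured together: lineage-depleted bone marrow from 8-week-old male donors of either kind was mixed in equal parts and given to lethally irradiated 8-week-old male Rag1 knockout hosts, whose own marrow forms no mature T or B cells, and the thymocytes were sorted 2 months later. Every wildtype array therefore carries the Ly5.1 allele and every knockout array lacks it, so that an effect of Bach2 and an effect of any DNA that travels with either Ptprc allele cannot be told apart for the genes near Ptprc. How far the donor segment around the Ly5.1 allele extends, and which strain it came from, is not stated in the labels. In what follows, array values are given in the order of replicates 1 to 3. They are RMA signals on the log2 scale, 1 for each probe set, and a difference of 1 is a 2-fold change.

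A congenic strain carries a stretch of chromosome from another strain around the allele that was selected. Genes inside that stretch can differ between the strains in their regulatory or coding sequence, and on an array also in how well their transcripts bind the probes. CD45 itself is abundant on all T cells, where it removes the inhibitory phosphate of the Src family kinases Lck and Fyn. The neighbouring genes belong to many pathways, among them complement control, G protein signalling, phosphatase signalling, proteolysis and transcription.

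Over the 52 genes, 4 were lower in the knockout and 0 were higher (limma, Benjamini-Hochberg adjusted p under 0.05 over all 19938 genes). The aspartic protease gene Ctse, the complement inhibitor gene Cd55, the phosphatase gene Ptprv and the G protein regulator gene Rgs16 fell. Among all tested genes 0.216% were called lower and 0.351% higher, 0.567% in all, against 4 of 52, or 7.69%, here. Earlier results of these data, the changes of Ctse and Cd55 among them, were known when the list was drawn up. The share of 7.69% and those that follow therefore describe the list, not the region. The members are also brighter than the tested genes: 40 of 52 had a mean over the median of all probe sets, against 10614 of 19938. At an unadjusted p under 0.05 there were 7 lower and 4 higher members, 21.2% together against 6.91% of all genes (3.87% lower and 3.04% higher). The 3 knockout values lay entirely below the 3 wildtype values in 10 members and entirely above in 4, together 26.9% against 11.7% of all genes (6.57% below and 5.13% above). The median difference over the members was -0.04 on the log2 scale, beside -0.01 over all tested genes, with 30 members below 0 and 22 above. The counts rest on limma's shared estimate of the spread: in a model for each gene alone, with no moderation, 0 members passed, with adjusted p of 0.0955 for Ctse and 0.243 for Cd55. Ptprv (adjusted p = 0.183) and Rgs16 (0.107) did not pass in a limma fit to all 35556 probe sets, which estimates the spread anew and adjusts over more features, while Ctse (0.0155) and Cd55 (0.0188) did.

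Ptprc (probe set 10358224), the gene whose allele separated the groups, read 10.88, 11.00 and 10.97 on the wildtype arrays and 10.93, 11.00 and 11.00 on the knockout arrays. The groups overlapped, and the arrays spanned a narrow range. It averaged 10.95 ± 0.07 on the wildtype and 10.98 ± 0.04 on the knockout arrays (SD over n = 3 arrays each), with a difference of 0.03 and a 95% interval from -0.17 to 0.23 (limma, adjusted p = 0.998). The interval leaves out changes of more than 1.17-fold in either direction. Of the promoter windows listed for Ptprc, the upstream one is shown (GRCm38.p6, chr1:138175306-138175555, minus strand; the 250 bases before the start, 5′ to 3′, from RefSeq), given because it is the fixed point of the gene order below.
Ptprc: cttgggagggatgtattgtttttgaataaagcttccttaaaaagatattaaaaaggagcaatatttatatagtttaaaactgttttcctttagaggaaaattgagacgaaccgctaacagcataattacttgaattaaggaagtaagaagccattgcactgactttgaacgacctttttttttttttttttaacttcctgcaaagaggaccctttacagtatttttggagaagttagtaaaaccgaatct

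The position of each gene was counted in places from Ptprc along the 1122 tested genes of chromosome 1, in the gene order of RefSeq assembly GRCm38.p6. The members run from Cd55, 107 places before Ptprc, to Glul, 54 places after it. This span holds 162 tested genes, and the 110 that are not members had 0 calls, with 7 at an unadjusted p under 0.05 (6.36%). Of the 301 genes within 150 places of Ptprc, 28 had an unadjusted p under 0.05 (9.30%), 10 higher and 18 lower, and the same 4 members were the 4 that passed. They were spread out. Cd55 lies 107 and Ctse 85 places before Ptprc, Ptprv 32 places before and Rgs16 49 places after, and none of the 50 genes within 25 places of Ptprc passed, where 2 (4%) had an unadjusted p under 0.05. Beyond 25 and up to 50 places away 2 of 50 genes passed and 9 (18%) had an unadjusted p under 0.05. Beyond 50 and up to 100 places 1 of 100 passed and 10 (10%) had such a p, and beyond 100 and up to 150 places 1 of 100 passed and 7 (7%) had one, beside 6.91% of all genes.

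Among the 5 tested genes to either side of each called member, 0 of 10 passed for Cd55, Ctse, Ptprv and Rgs16 alike; at the share called over all genes, 0.567%, 10 genes would seldom hold a call, so these counts do not show whether changes came in blocks. Around Cd55 these 10 differed by -0.20 to 0.19 and 0 of them had an unadjusted p under 0.05. Around Ctse they differed by -0.56 to 0.24, and 4 of the 10 lay entirely lower in the knockout, or 40% against 6.57% of all genes. Of these, 2 had an unadjusted p under 0.05, Rab7b (-0.56) and Slc41a1 (-0.35), which are no members and were singled out after their values were seen. Rab7b was dim, under 4.94, the median of all probe sets, on every array. Around Ptprv the 10 genes ran from -0.26 to 0.93, with 3 higher and 1 lower at an unadjusted p under 0.05. Around Rgs16 they ran from -0.38 to 0.49, with 1 higher and 1 lower. Such a p was thus held by 40% of the 10 genes around Ptprv and by 20% around Rgs16 and around Ctse, beside 6.91% of all genes. The groups did not overlap in 30% of the genes around Ptprv and 20% around Rgs16, beside 11.7% of all genes. For comparison, the 239 tested genes within 150 places of Bach2 on chromosome 4 held 2 calls, Bach2 itself and Nr4a3. The chromosome ends 88 places before Bach2 in this order. These calls were 0.837% of that window, beside 1.33% around Ptprc. At an unadjusted p under 0.05 there were 18 of the 239 (7.53%), 3 higher and 15 lower. Within 25 places, Bach2 included, 5 of 51 genes had such a p (9.8%), all lower. Bach2 fell from 8.05 ± 0.16 to 6.48 ± 0.06 (SD, n = 3 each; limma, adjusted p = 0.000156). Nr4a3, an orphan nuclear receptor gene at the edge of the window of 150 places, fell by 0.60 ± 0.10 (limma SE, adjusted p = 0.0209). With an array left out Bach2 passed in 6 of 6 fits and Nr4a3 in 2, with an adjusted p up to 0.12 without knockout replicate 2.

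**Figure D1:**
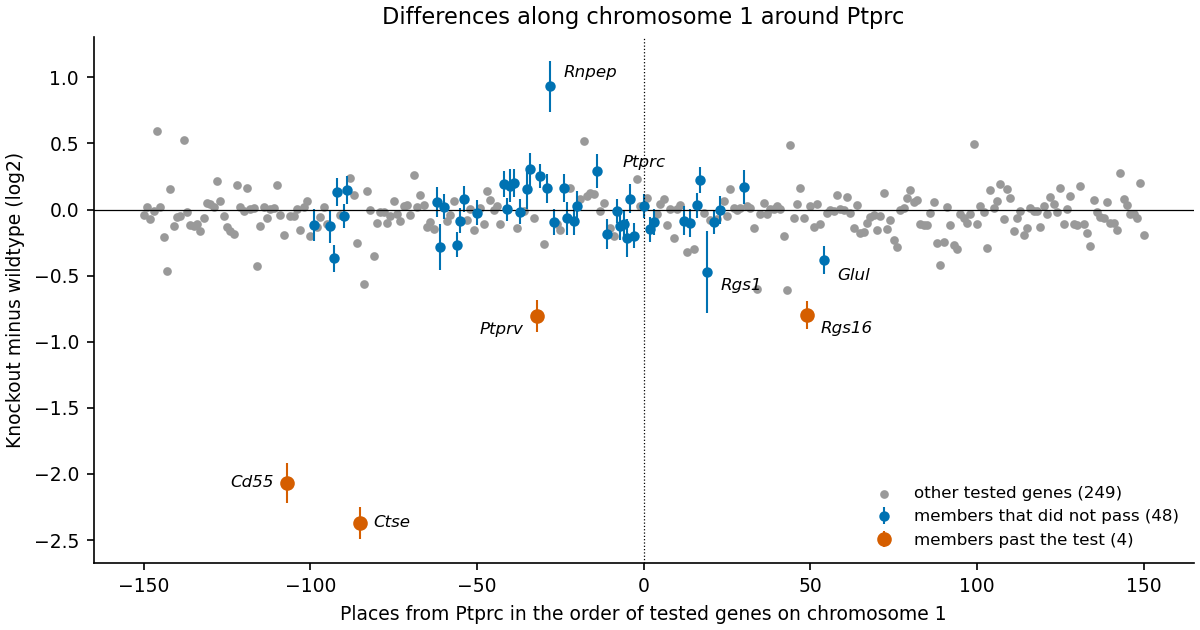
Knockout minus wildtype difference (log2, vertical axis) of the 301 tested genes within 150 places of Ptprc, against their place in the gene order of chromosome 1 (horizontal axis). Blue and orange points are the 52 members with the limma standard error as bars, grey points are the other 249 genes; the 4 orange members past the test, Cd55, Ctse, Ptprv and Rgs16, lie 107, 85 and 32 places before and 49 places after Ptprc, below 0, and Rnpep, 28 places before, is the highest point at 0.93.

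Ctse (probe set 10349648) encodes cathepsin E, an aspartic protease of the pepsin family found in endosomes of immune and epithelial cells. It read 10.88, 10.89 and 10.87 on the wildtype arrays and 8.76, 8.30 and 8.47 on the knockout arrays. The 3 wildtype arrays were nearly the same, and every knockout array was far below them. The difference was -2.37 ± 0.12 (limma SE), a 5.17-fold lower signal with a 95% interval from -2.64 to -2.10 (adjusted p = 5.16e-05). It passed in all 6 fits that left out an array, in which the adjusted p ran from 3.5e-05 to 0.00104. No other aspartic protease gene of the list passed, of 5 measured of 7 (limma, 0 also at an unadjusted p under 0.05). Napsa differed by 0.17 (adjusted p = 0.84) and Bace1 by -0.13, while the lysosomal cathepsin D gene Ctsd averaged 9.91 ± 0.07 on the wildtype and 9.79 ± 0.08 on the knockout arrays (SD over n = 3 arrays each).

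Cd55 (probe set 10357488) encodes decay-accelerating factor, a surface protein that takes apart the convertases of the complement cascade on the body's own cells. It read 6.23, 6.52 and 5.95 on the wildtype arrays and 4.27, 3.96 and 4.28 on the knockout arrays. The lowest wildtype array was well above the highest knockout array. The difference was -2.07 ± 0.15, a 4.19-fold lower signal with a 95% interval from -2.40 to -1.73 (limma, adjusted p = 0.000208). All 3 knockout values lie under 4.94, the median of all probe sets, so this side of the comparison is dim and the fold may be understated. With each array left out in turn the difference ran from -2.21 to -1.92, and each passed. Of 12 other complement regulator and receptor genes 11 were measured and 0 passed (limma). An unadjusted p under 0.05 was held by 1 of them (9.09%, beside 6.91% of all genes). That one was Cr2, a complement receptor gene of B cells, which differed by -0.27 (adjusted p = 0.445). The next smallest p was that of Cd59a, which encodes an inhibitor of the membrane attack complex and differed by 0.20. Only Cfp and Cr1l of this list averaged over the median of all probe sets. The others, Cr2 and Cd59a among them, were dim, and a fall in them would be hard to see. The paralog Cd55b, whose signal was dim on every array, read 2.51, 2.37 and 2.87 on the wildtype arrays and 2.32, 2.33 and 2.51 on the knockout arrays, which overlap.

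Ptprv (probe set 10357986) encodes a receptor-type tyrosine phosphatase known in the mouse from bone and testis. It read 5.53, 5.93 and 5.86 on the wildtype arrays and 5.07, 4.95 and 4.89 on the knockout arrays. The groups did not overlap, but wildtype replicate 1 lay nearer to the knockout than the other wildtype arrays did. The difference was -0.81 ± 0.12, 1.75-fold lower (limma, adjusted p = 0.0161). Its call was lost without wildtype replicate 3 (adjusted p = 0.107), without knockout replicate 2 (0.0886) and without knockout replicate 3 (0.0917). Ptpn7, the next tested gene and the gene of a phosphatase of blood cells that acts on the kinases ERK and p38, differed in the other direction. It read 8.45, 8.59 and 8.44 on the wildtype arrays and 8.75, 8.75 and 8.74 on the knockout arrays, apart by 0.26 ± 0.09, which did not pass (adjusted p = 0.525).

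Rgs16 (probe set 10350733) belongs to the regulators of G protein signalling, which speed up GTP hydrolysis on G protein alpha subunits and so shorten signals from chemokine and other receptors. It read 7.43, 7.48 and 7.25 on the wildtype arrays and 6.71, 6.55 and 6.50 on the knockout arrays. The groups did not overlap. The difference was -0.80 ± 0.10, 1.74-fold lower (limma, adjusted p = 0.00754), and the adjusted p was 0.0189 to 0.0497 when an array was left out. The other 3 listed genes of the family did not pass. Rgs2 was higher on all 3 knockout arrays (7.99, 8.10 and 8.19) than on the wildtype arrays (7.90, 7.96 and 7.76), a difference of 0.22 ± 0.10 (adjusted p = 0.727). Rgs18, a gene known from platelets, was at 2.56 to 2.79 on all 6 arrays. Of 16 RGS genes outside the list, some of them also near Ptprc, 15 were measured, with 0 past the test and 0 at an unadjusted p under 0.05. Their differences ran from -0.13 to 0.15, with Rgs4 and Rgs11 at these ends. Most of them were dim. Only Rgs3, Rgs12, Rgs14 and Rgs19 averaged over 4.94, the median of all probe sets, in both groups. A fall of the others would be hard to see.

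Rgs1, whose product restrains chemokine-driven migration of lymphocytes, varied most within wildtype. It read 5.56, 6.93 and 6.79 on the wildtype arrays and 5.62, 6.20 and 6.05 on the knockout arrays. Wildtype replicate 1 was the lowest of all 6 arrays, so the groups overlapped. The difference was -0.47 ± 0.31 (limma, adjusted p = 0.902), with a 95% interval from -1.16 to 0.22. Without wildtype replicate 1 it was -0.91 (adjusted p = 0.0538).

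**Figure D2:**
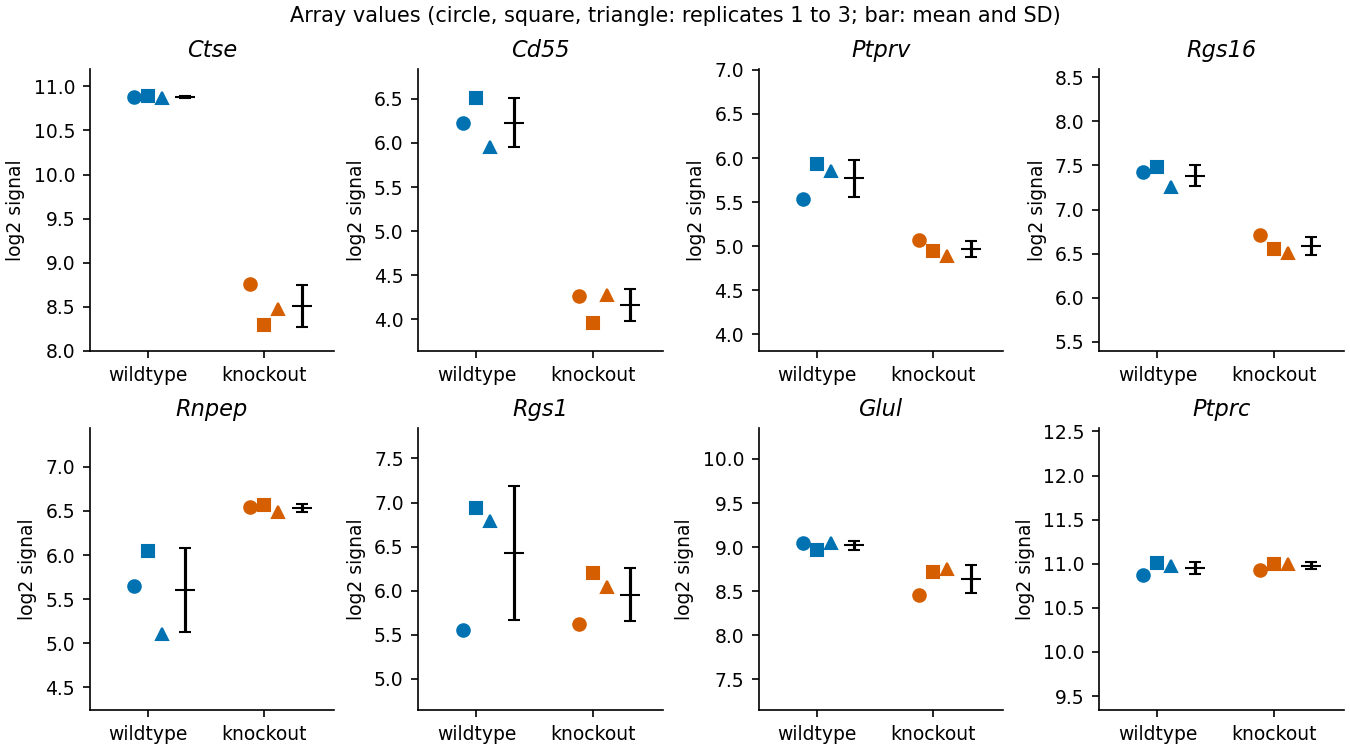
RMA signal (log2, vertical axes, each spanning the same number of log2 units) of 8 members on the 3 wildtype (blue) and 3 knockout (orange) arrays, with the mean and SD of each group in black. Ctse, Cd55, Ptprv, Rgs16 and Glul are lower and Rnpep is higher on every knockout array, Rgs1 overlaps through wildtype replicate 1, and Ptprc lies level.

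Markers of regulatory T cells moved with the same comparison, and their array values are set beside those of the members. In bulk RNA, fewer cells of a type and less RNA per cell cannot be told apart. Of 12 regulatory T cell markers, all measured, Foxp3, Il2ra, Ikzf2, Lrrc32 and Nt5e fell and Izumo1r rose by limma. With an array left out, Foxp3 passed in 6 of 6 fits, Ikzf2 in 5, Lrrc32 in 4, Nt5e in 2, and Il2ra and Izumo1r in 1 each. The adjusted p was highest without wildtype replicate 3 for Il2ra (0.133), Ikzf2 (0.0617), Lrrc32 (0.0657) and Nt5e (0.0951), and without knockout replicate 2 for Izumo1r (0.202). The mean of the 12 markers was 7.53, 8.26 and 8.24 on the wildtype arrays and 7.10, 7.08 and 7.16 on the knockout arrays. Wildtype replicate 1 was thus the lowest of its group in this list, as it was for Rgs1 and Ptprv. The same array was also lowest in wildtype for other members that did not pass, among them Ptprc, Ikbke, Mdm4 and Pik3c2b. This order is thus not particular to Rgs1 and Ptprv. For further members, such as Sox13, Uchl5 and Glul, another wildtype array was lowest. Ctse read 10.87 to 10.89 on the 3 wildtype arrays, and the lowest wildtype array was replicate 3 for both Cd55 and Rgs16. The part of regulatory T cells in the differences of the 4 called members was not tested.

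The other marker lists had smaller mean differences. The CD4 T cell markers, 6 measured of 7, averaged 10.53 to 10.62 over the 6 arrays, and Cd4 itself was at 10.33 to 10.43, as the label of the sorted cells has it. Double-positive thymocyte markers, all 9 measured, averaged 6.70, 6.97 and 6.95 on the wildtype arrays and 6.90, 7.39 and 7.88 on the knockout arrays. These means overlap, and 0 members passed the test. At an unadjusted p under 0.05 (limma), Themis, Arpp21, Rag1 and Ptcra were higher and none was lower. CD8 and natural killer markers, all 7 measured, averaged 5.39 to 5.63 in wildtype and 4.89 to 5.13 in knockout cells. The means of this list did not overlap, also with 0 genes past the test. Eomes, Runx3, Prf1, Nkg7 and Gzmb were lower at an unadjusted p under 0.05 (limma), and none was higher. Over all tested genes 6.91% had such a p. Macrophage markers, all 7 measured, averaged 4.24 to 4.51 in wildtype and 4.40 to 4.82 in knockout arrays, which overlap, and Lyz2 was the 1 that rose. The mean differences of the dendritic (6 measured), B cell (5 measured), erythroid (1 measured) and thymic stroma (6 measured) lists were 0.07, 0.09, -0.20 and 0.01, with 0 members past the test. The part of these cells in the members' differences was not tested.

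**Figure D3:**
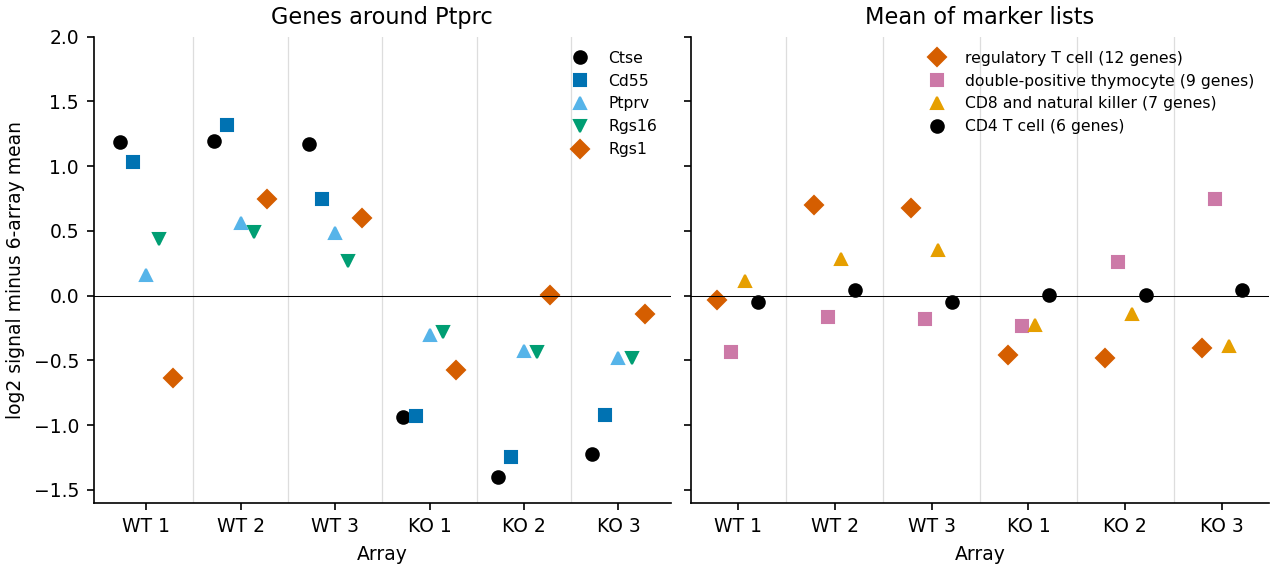
Signal of 5 members (left) and mean signal of 4 marker lists (right) on each array, as log2 units from the mean of the 6 arrays (vertical axis), for wildtype (WT) and knockout (KO) replicates 1 to 3. Ctse is level over the wildtype arrays, while Rgs1 and the regulatory T cell markers are both lower on wildtype replicate 1 than on the other wildtype arrays.

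Among the other immune signalling and surface genes, all 11 measured with Ptprc, Cd55, Ptprv and Ptpn7, the remaining 7 did not pass. Mapkapk2, the gene of a kinase downstream of p38 that stabilises cytokine messages, read 8.13, 8.22 and 8.16 on the wildtype arrays and 7.93, 7.83 and 7.65 on the knockout arrays. The groups did not overlap, and the difference was -0.37 ± 0.10 (limma, adjusted p = 0.286). Rassf5, which links the GTPase Rap1 to integrin adhesion, also had groups that did not overlap, yet differed by only -0.05. Ikbke, the gene of a kinase related to the IκB kinases, differed by 0.15 and Lax1, the gene of a membrane adaptor of lymphocytes, by 0.08. The interleukin 10 gene Il10 was dim, at 2.83 to 3.25 in wildtype and 2.73 to 3.00 in knockout arrays, and the groups overlapped. Pigr, which carries polymeric immunoglobulin across epithelia, and the orphan receptor gene Gpr25 differed by -0.11 and -0.01. Of 11 other genes on CD45 substrates and the control of Src kinases 10 were measured, among them Cd247, which lies on chromosome 1 at 144 places after Ptprc, and Zap70, farther off on the same chromosome, with 0 past the test and 0 at an unadjusted p under 0.05. Their differences ran from -0.01 to 0.18, and Skap1 and Pag1 had the smallest p (adjusted p of at least 0.841 over the list).

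In the group of proteolysis, metabolism and membrane genes, 12 of 16 were measured and Ctse was the 1 that passed. Rnpep, which encodes aminopeptidase B, an enzyme that trims basic residues from the start of peptides, had the largest positive difference of all members. It read 5.65, 6.05 and 5.11 on the wildtype arrays and 6.54, 6.57 and 6.49 on the knockout arrays. The knockout arrays were all higher and close together, while the wildtype arrays were spread over almost a log2 unit. The difference was 0.93 ± 0.19, with a 95% interval from 0.50 to 1.36, and did not pass (limma, adjusted p = 0.0875). It passed with a prior that follows the expression level (adjusted p = 0.0389) and with array weights (0.0118). It also passed without wildtype replicate 2 (adjusted p = 0.0149), and the adjusted p was up to 0.316 with another array left out.

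Glul, the gene of glutamine synthetase, was measured by 2 probe sets, both lower on every knockout array. The main one read 9.05, 8.96 and 9.05 on the wildtype arrays and 8.46, 8.72 and 8.75 on the knockout arrays, a difference of -0.38 ± 0.11 (limma, adjusted p = 0.294). The other differed by -0.30. Ube2t, a ubiquitin-conjugating enzyme gene of the Fanconi anaemia pathway, differed by 0.30 ± 0.12 (adjusted p = 0.638), and Tmem9, a gene of a lysosomal membrane protein, by 0.29 ± 0.13 (adjusted p = 0.716); for both, the groups overlapped. Cyb5r1 was higher on every knockout array by 0.20 on average, and Rabif and Klhl12 differed by 0.20 and 0.18 with overlap. Adipor1, the gene of an adiponectin receptor, differed by 0.00, with values of 7.82 to 7.87 on all 6 arrays. Timm17a, of the mitochondrial import machinery, the glutaredoxin gene Glrx2 and the deubiquitinase gene Uchl5 differed by -0.10, -0.10 and 0.03.

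The remaining role groups held 0 calls by limma. All 8 genes of stress, growth arrest and lipid signalling were measured, with 0 at an unadjusted p under 0.05. Mdm4, which restrains p53, differed by 0.06, the antiproliferative gene Btg2 by -0.02, the phosphatase regulator Ppp1r15b by 0.02 and the p53 target Phlda3 by 0.02. The kinase gene Dyrk3 (0.13), the lipid kinase gene Pik3c2b (-0.28), the inflammasome kinase gene Nek7 (-0.15) and the phospholipase A2 gene Pla2g4a (0.00) complete the group. Pik3c2b had a wide wildtype spread, from 6.56 to 7.28.

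Of 14 nuclear, transcription and RNA genes 11 were measured, and 1 had an unadjusted p under 0.05 (9.09%, beside 6.91% of all genes). This was Sox13, a transcription factor gene known from gamma delta T cells, averaging 6.13 ± 0.10 on the wildtype and 5.86 ± 0.02 on the knockout arrays (SD over n = 3 arrays each; limma, adjusted p = 0.514). The histone demethylase gene Kdm5b (-0.01), the splicing gene Snrpe (-0.08), the zinc finger gene Zfp281 (0.08), Cdc73 of the PAF1 complex (-0.08), the helicase gene Ddx59 (-0.11), the importin gene Ipo9 (0.17) and Ivns1abp (0.17) all overlapped between the groups. The orphan nuclear receptor gene Nr5a2, the homeobox gene Lhx9 and the epithelial factor gene Elf3 were dim, at most 4.05 on every array, and differed by -0.20, -0.10 and 0.16. In this group Sox13 and Nr5a2 were lower on every knockout array, 2 of 11 genes without overlap (18.2%, beside 11.7% of all genes). Ro60, the current name of Trove2 and not counted above, was lower on every knockout array and differed by -0.30 ± 0.14 (adjusted p = 0.771).

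Of 7 cytoskeleton and transport genes 6 were measured, with overlap between the groups in all of them and 0 at an unadjusted p under 0.05. The motor protein genes Kif21b and Kif14 differed by -0.18 and -0.22, the microtubule-end gene Camsap2 by -0.12, and Csrp1 and Nav1 by -0.09 and -0.07. Ppp1r12b, which encodes a myosin phosphatase subunit, has 7 probe sets. The main one differed by 0.15, and the other 6 differed by 0.06 to 0.43, all in the same direction, with 0 past the test over all probe sets and 2 at an unadjusted p under 0.05. Of the members, 6 had more than 1 probe set, and 0 of their 11 additional probe sets passed.

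**Figure D4:**
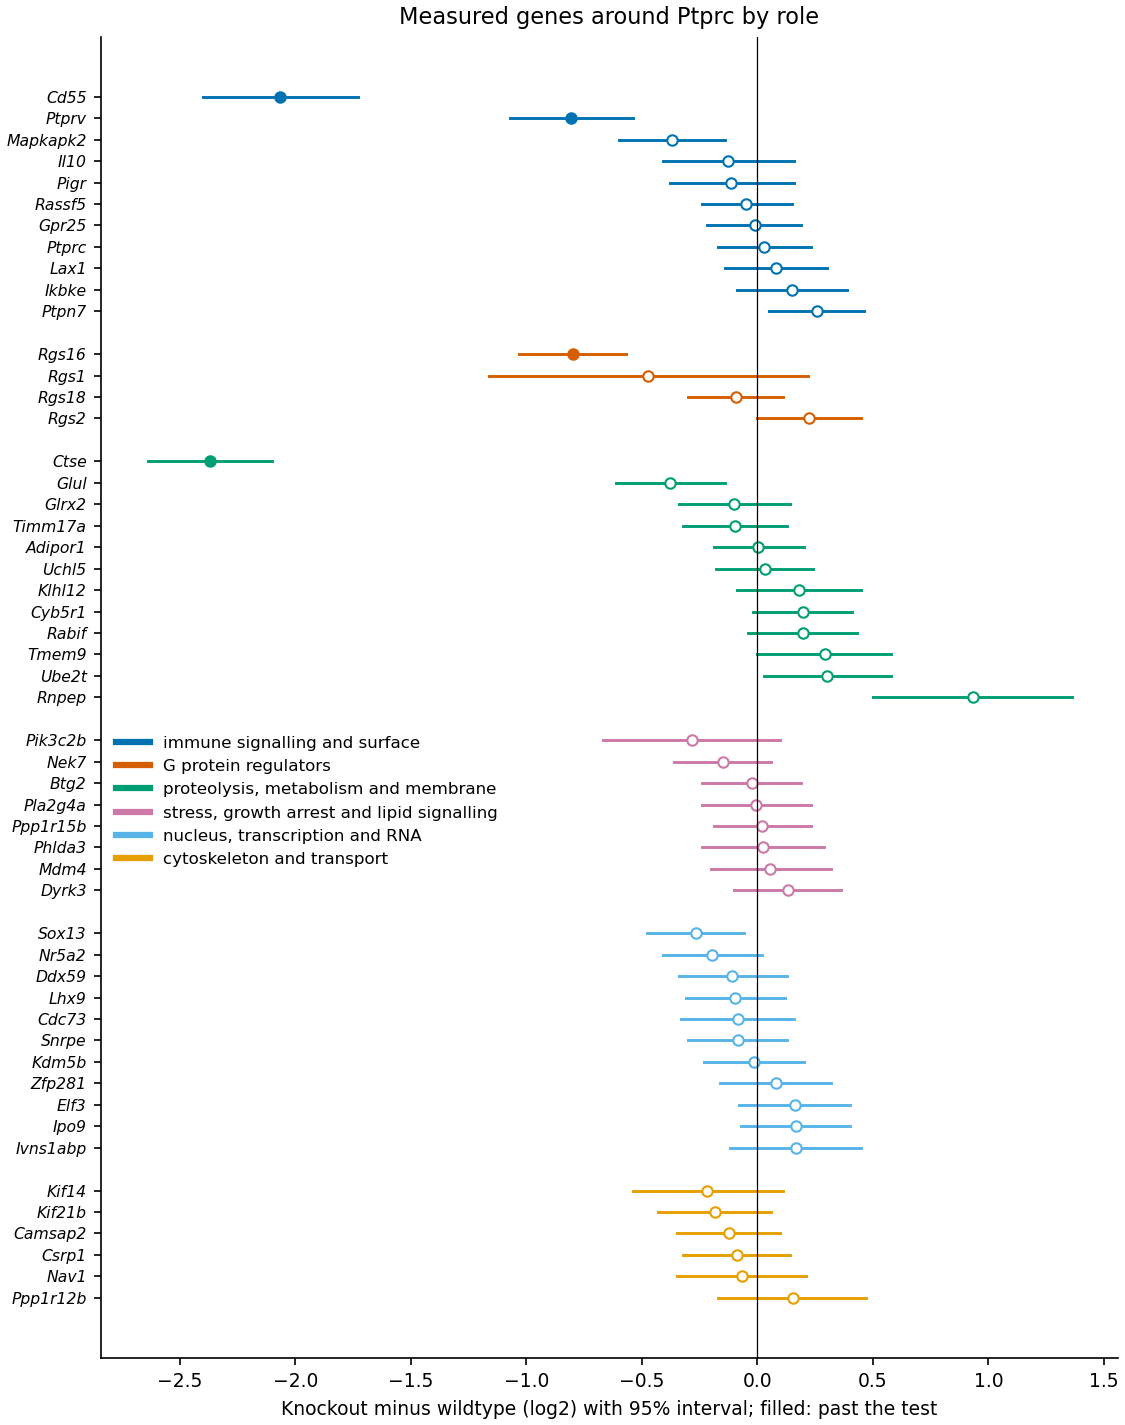
Knockout minus wildtype difference (log2, horizontal axis) of the 52 measured members with 95% intervals from limma, grouped by role and ordered within each group; filled points passed the test. The 4 filled points, Cd55, Ptprv, Rgs16 and Ctse, all lie below 0, and the intervals of 43 of the other 48 members stay within a 1.5-fold change.

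For the 48 members that did not pass, the intervals show how large a change the arrays would still allow. In 43 of them the whole 95% interval lay within a 1.5-fold change in either direction, and in 46 within a 2-fold change. The 2 whose intervals reached past 2-fold were Rgs1 (up to 2.24-fold) and Rnpep (up to 2.57-fold). The median SD between replicates was 0.12 over the members in wildtype and 0.10 in knockout cells, beside 0.14 and 0.10 over all tested genes. Of the 52 members 40 had a mean over the median of all probe sets, the 4 called genes among them.

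Promoter sequence was listed for 45 of the 52 members, among them Cd55 and Rgs16 of the 4 called genes, and not for Ctse and Ptprv. Bach2 is known to bind, with small Maf proteins, sites that hold the core of AP-1 motifs. The motif TGANTCA was therefore searched on both strands in the 250 bases before each start, together with the related motif TGACGTCA, which does not contain it. Of all 32851 listed windows 6.75% held TGANTCA and 1.55% TGACGTCA. Of the 61 windows of the members 1 held TGANTCA, in front of Mdm4, and 2 held TGACGTCA, those of Btg2 and Klhl12. Neither called gene with a listed window had a match in it. The windows of Cd55 (GRCm38.p6, chr1:130462745-130462994, minus strand) and Rgs16 (chr1:153740103-153740352, plus strand) are shown because both genes fell, and that of Mdm4 (chr1:133025417-133025666, minus strand) because it holds the match, in capitals. All are from RefSeq, 5′ to 3′ on the gene's strand. A match or its absence in this short window says nothing on binding.
Cd55: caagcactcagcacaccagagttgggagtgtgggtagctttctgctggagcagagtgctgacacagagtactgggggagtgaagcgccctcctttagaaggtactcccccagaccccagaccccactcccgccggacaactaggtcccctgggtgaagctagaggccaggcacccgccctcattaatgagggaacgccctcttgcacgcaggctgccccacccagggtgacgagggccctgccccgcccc
Rgs16: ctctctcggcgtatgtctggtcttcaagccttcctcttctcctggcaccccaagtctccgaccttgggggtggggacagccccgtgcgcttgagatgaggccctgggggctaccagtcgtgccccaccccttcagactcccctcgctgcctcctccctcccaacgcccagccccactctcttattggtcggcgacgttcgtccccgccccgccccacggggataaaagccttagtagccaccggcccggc
Mdm4: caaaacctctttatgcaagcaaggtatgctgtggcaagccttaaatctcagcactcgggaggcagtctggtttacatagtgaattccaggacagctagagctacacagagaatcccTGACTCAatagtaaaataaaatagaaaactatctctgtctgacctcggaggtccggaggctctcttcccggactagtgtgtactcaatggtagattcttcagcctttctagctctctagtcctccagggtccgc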

How the data were processed

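RNA of 3 wildtype and 3 Bach2 knockout samples was measured on 6 arrays. The deposited values are log2 signals, 1 for each of 35556 probe sets, and the submitters' processing notes name RMA and Partek without versions. The log2 scale was read from the values, and other steps are not stated in the labels. Since RMA aligns the arrays to each other, a change common to all genes would be hidden. Arrays give no read depth, and the number of arrays limits the precision.

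Probe sets with 1 annotated symbol (21789) were kept, and each gene was represented by the one with the highest mean, which gave 19938 genes. The genotypes were compared with limma 3.58.1 under R 4.3.3, using lmFit and eBayes with two-sided p-values, which were adjusted by Benjamini-Hochberg across the tested genes and called under 0.05. Gene order came from a RefSeq table of GRCm38.p6 and served only for names and neighbours. The members, the role groups, the pathway and marker lists and the tests were chosen with earlier results of these data known. Every measured member could be named, with full statistics for Ptprc, the called members and the 10 largest differences. By plan, non-members were to be named if they passed the test near Ptprc, or from the pathway lists by p. Beyond this plan, Rab7b and Slc41a1 were named after their values were seen. Nr4a3 was named as a call near Bach2 and Ro60 as the current name of Trove2. Marker genes and some further pathway genes were named as well. On simulated data for this comparison (19938 genes, 200 changed) the procedure recovered 38.8% of changes of 0.5 on the log2 scale, 80.6% of 1 and 100% of 2, with 9 false calls. The plots used matplotlib 3.10.9 and Python 3.11.15.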

Additional observations from a re-analysis of the deposited data

How the results depend on the processing

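The count of 4 lower members held with a 1.5-fold minimum, a trended or robust prior, a filter on dim genes (10614 left), averaged probe sets, median centring, a second quantile normalization and array weights. It was 0 without moderation and 2 in a fit to all 35556 probe sets, which changes both the shared spread and the adjustment. The count of higher members was 1 (Rnpep) instead of 0 with a trended prior and with array weights. The count within 150 places of Ptprc was 7 with a trended prior, 7 with array weights, 0 without moderation and 2 with all probe sets, and 0 within 25 and 2 within 50 places. With single arrays left out there were 3 to 4 lower members, 0 to 1 higher (1 without wildtype replicate 2), 3 to 6 calls within 150 places and medians of -0.05 to -0.03. Ptprc differed by -0.009 to 0.054 in these fits, the lowest without wildtype replicate 1, and did not pass in any. The cause of these changes was not tested. The replicate numbers were not taken to pair the samples, since no label says that a number marks a shared host or batch: same-numbered arrays deviated together with correlations of 0.213, 0.113 and -0.065 across genes. With the replicate block 4 members were lower, 1 was higher (Rnpep, adjusted p = 0.0407) and 6 genes within 150 places passed.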
